A study of Homo sapiens with 72 samples.

Results

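The late transcriptional response to ultraviolet (UV) light was compared between STK19 knockout and unedited (WT) cells, as the difference of differences in RNA level between 20 h and 0 h. HEK293 Flp-In T-REx is a human embryonic kidney line with a site for targeted integration of transgenes. The comparison used 18 of the 72 libraries of polyadenylated RNA, 3 per group: untreated WT, STK19_KO1 and STK19_KO2 cells (0 h), and the same 3 lines irradiated and harvested at 20 h in DMSO, the solvent of the ATR inhibitor that other libraries of the study received. The sources used here state no UV dose, and the labels do not settle whether 20 h counts from irradiation or from addition of the solvent. Each knockout is 1 labelled clone and WT is the only unedited line, so a trait of 1 clone or of WT cannot be told apart from the knockout. No group without UV was held to 20 h, so UV cannot be told apart from time in culture or DMSO. Nothing in the labels says that replicates were separate cultures, so the p-values speak for the spread of these libraries, which may be technical.

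UV light leaves bulky lesions in DNA that stall RNA polymerase II. Transcription-coupled nucleotide excision repair begins at the stalled polymerase with CSB (encoded by ERCC6), CSA, UVSSA and ELOF1, and STK19 acts in the same pathway, where it helps to bring the repair factor TFIIH to the polymerase. Repair lets transcription recover, and a long transcription unit is more likely than a short one to hold a lesion. Short stress-response genes are known to be induced after UV.

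For each gene, the interaction is the change from 0 h to 20 h, averaged over both knockouts, minus the change in WT, on the log2 scale. A positive value means a larger rise or a smaller fall in the knockouts, and a negative value the opposite. A gene was called when both clones had the same sign and its p from edgeR's quasi-likelihood test, adjusted by Benjamini-Hochberg for the 15470 genes tested (of 19324 in the table), was under 0.05. By that rule 8550 genes (55.3%) were called, 3508 higher (22.7%) and 5042 lower (32.6%) in the knockouts than in WT. At least 2-fold interactions were called for 376 higher genes (2.43%) and 784 lower genes (5.07%). Another 28 genes (0.181%) passed the test with opposite signs in the clones and were left out of these counts. When counts were scaled to library totals in place of trimmed means (TMM), the median of all genes moved from -0.09 to -0.20. Of the called genes, 30.1% in place of 41.0% were then higher. With upper-quartile scaling 4165 genes were higher and 4354 lower, with a median of -0.01. With only the libraries of this comparison in the fit, 4623 were higher and 4474 lower, with a median of 0.006. Which direction held more genes therefore depends on the processing.

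In units of 1e6 counts, the depth of the 18 libraries ran from 41.1 to 183.6, with a median of 59.45. Replicate 1 of untreated WT stood apart from its replicates: chi-square per gene against them was 35.6 and 37.7, compared with at most 12.1 for the other pairs of these groups. Without it, 3461 genes were called higher and 4882 lower, and 144 of the 148 genes selected for naming kept the same direction and side of the threshold. The exceptions were H2AC20, NEFM, STK19 and H2BC5. Among the 4 h libraries used further down, replicate 1 of WT differed most from its replicates (chi-square per gene up to 49.5). STK19 RNA did not separate the lines: in WT it was 19.0 ± 1.07 CPM (library counts scaled by TMM to a common size of 1e6; SD, n = 3) at 0 h and 25.7 ± 1.63 at 20 h, in STK19_KO1 17.5 ± 0.587 and 26.5 ± 1.00, and in STK19_KO2 17.1 ± 0.862 and 26.8 ± 1.09. A small edit need not lower RNA level, so STK19 RNA neither supports nor contradicts the labels.

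**Figure D1:**
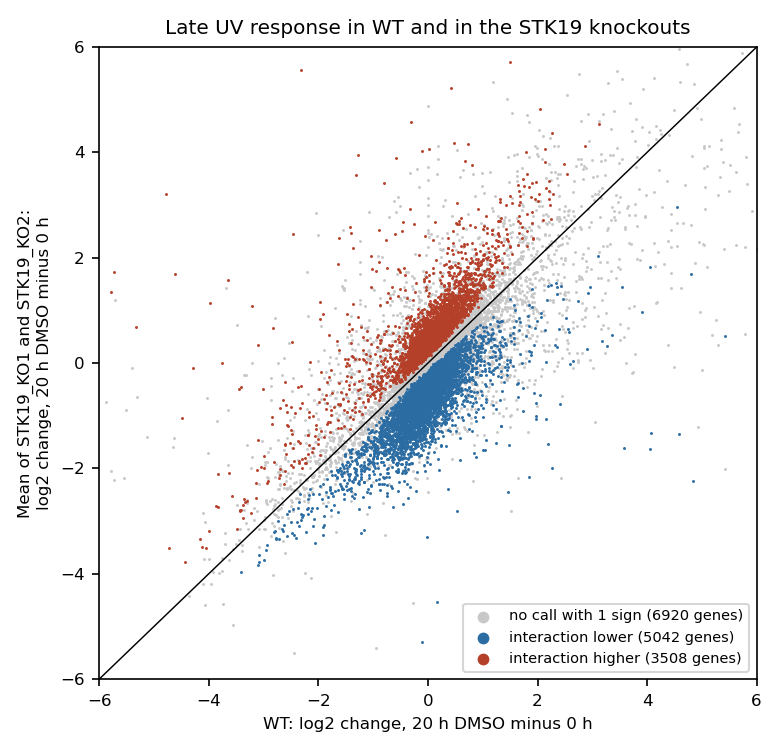
Each point is 1 gene, with its log2 change from 0 h to 20 h in DMSO in WT (x axis) and as the mean of both STK19 knockouts (y axis); red and blue mark the 3508 higher and 5042 lower called genes, and the line marks equal change. The called genes lie on either side of the line, and 26 genes beyond 6 log2 units on an axis are not drawn.

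Changes from 0 h to 20 h were called for 55.4% of all tested genes in WT, 69.1% in STK19_KO1, 71.6% in STK19_KO2 and 77.9% for the mean of both knockouts. Of the 3508 higher genes, 1358 (38.7%) rose in WT and in the knockouts, and 1283 (36.6%) rose in the knockouts while the change in WT was not called. Another 305 (8.69%) fell in WT and rose in the knockouts. In the lower group, 1813 of 5042 (36%) fell in both, 1811 (35.9%) fell in the knockouts while the change in WT was not called, and 644 (12.8%) rose in WT and fell in the knockouts. By level rather than change, 1395 of the higher genes (39.8%) and 2106 of the lower genes (41.8%) differed between knockouts and WT at 20 h with no call at 0 h, where 72.1% (20 h) and 51.5% (0 h) of all tested genes were called. Another 376 higher genes (10.7%) had a lower level in the knockouts at 0 h and no call at 20 h. Likewise, 586 lower genes (11.6%) had a higher level at 0 h and no call at 20 h.

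The 12 genes with the most positive interaction, among those well expressed and called in each clone, were NGFR, SPRY4, PHLDA2, TNFSF9, FOSL1, ALDOC, SNAI1, HAP1, SERTAD1, EPHB3, RND1 and PLEKHO2, with interactions from 1.56 to 2.10, and all spanned 1.15 to 26.1 kb of the genome. These genes were picked by the size of this value, so their sizes are a description. No alternative setting among the 36 tried changed the call or direction of these genes or of the 12 most negative ones below.

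NGFR (chr17:49495293-49515008, GRCh38), the p75 neurotrophin receptor gene, had the most positive interaction. In WT its level was 1.34, 1.69 and 2.13 CPM at 0 h and 8.0, 9.42 and 8.11 CPM at 20 h. In STK19_KO1 the values were 2.08, 1.94 and 1.62 CPM at 0 h and 34.6, 34.2 and 34.4 CPM at 20 h, and in STK19_KO2 2.32, 2.53 and 2.3 CPM at 0 h and 55.9, 52.6 and 55.4 CPM at 20 h. All lines started low, and all 6 knockout libraries at 20 h lay above all 3 of WT. The interaction was 2.10 ± 0.16 (SE; adjusted p = 1.07e-16, edgeR quasi-likelihood, Benjamini-Hochberg), 1.95 in STK19_KO1 and 2.26 in STK19_KO2.

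ALDOC, a glycolytic aldolase, rose in WT from 2.42, 2.67 and 2.72 CPM to 8.54, 8.47 and 9.13 CPM. It rose in STK19_KO1 from 1.87, 1.58 and 1.81 CPM to 22.8, 21.3 and 21.8 CPM, and in STK19_KO2 from 4.91, 6.04 and 5.47 CPM to 55.1, 55.2 and 54.7 CPM. The clones differed in level at both times, and each ended above WT with no overlap. The interaction was 1.75 ± 0.12 (SE; adjusted p = 2.34e-18, edgeR quasi-likelihood).

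SNAI1, a repressor of epithelial genes, was between 1.55 and 2.33 CPM in all 9 untreated libraries. At 20 h it was 4.34, 4.56 and 4.49 CPM in WT, 16.7, 16.1 and 16.0 CPM in STK19_KO1, and 16.2, 18.1 and 19.1 CPM in STK19_KO2. The knockouts were similar to each other and apart from WT. HAP1, which encodes a partner of huntingtin, reached 6.29 ± 1.16 CPM in WT, 29.4 ± 1.69 in STK19_KO1 and 63.2 ± 1.68 in STK19_KO2 (SD, n = 3).

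For SPRY4 and FOSL1 a positive interaction did not mean a higher level than in WT. SPRY4, a feedback inhibitor of receptor tyrosine kinase signalling, was 15.2 ± 0.429 CPM in untreated WT but 2.03 ± 0.538 in STK19_KO1 and 1.48 ± 0.287 in STK19_KO2 (SD, n = 3). At 20 h it was 20.9 ± 0.370 CPM in WT, 5.92 ± 0.391 in STK19_KO1 and 16.4 ± 0.903 in STK19_KO2, so every knockout library still lay below WT. FOSL1, which encodes a subunit of the AP-1 transcription factor, was 10.9 ± 1.32, 4.24 ± 0.135 and 1.34 ± 0.258 CPM at 0 h in the same order of lines. At 20 h it was 12.1 ± 0.491, 12.7 ± 0.121 and 6.93 ± 0.491 CPM, so STK19_KO1 had drawn level with WT and STK19_KO2 had not. For the other 10 genes, all knockout libraries at 20 h lay above all those of WT.

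The 12 most negative interactions, from -2.21 to -1.72, belonged to ROBO1, KMT2C, MUC16, BIRC6, SLIT2, PTPN13, WDFY3, RNF213, PRMT3, TBL1X, USP34 and EFNA5. All spanned 121.8 to 1171 kb of the genome, and in all 12 every knockout library at 20 h lay below every WT library. For SLIT2 that gap was small (knockouts minus WT, log2 -0.32). At 0 h it had been far higher in the knockouts (1.56), with 501.9 and 469.5 CPM against 164.5 CPM in WT. EFNA5 also started higher in the knockouts (0.54), while PRMT3 started lower (-0.46). ROBO1 and SLIT2 encode a receptor and its ligand in axon guidance, and EFNA5 an ephrin. BIRC6, RNF213 and USP34 encode large enzymes of ubiquitin transfer or removal.

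KMT2C (chr7:152134922-152436644, GRCh38), a histone lysine methyltransferase gene, was at its untreated level in WT at 20 h (log2 change -0.05, adjusted p = 0.63, edgeR quasi-likelihood) and far under it in the knockouts. WT had 91.2, 76.9 and 78.6 CPM at 0 h and 82.9, 75.6 and 80.2 CPM at 20 h. STK19_KO1 went from 91.9, 90.1 and 90.0 CPM to 22.9, 22.9 and 21.2 CPM, and STK19_KO2 from 91.1, 91.2 and 89.1 CPM to 21.8, 21.8 and 21.3 CPM. The groups overlapped at 0 h and were wide apart at 20 h. The interaction was -2.00 ± 0.10 (SE; adjusted p = 1.28e-24, edgeR quasi-likelihood), -1.97 in STK19_KO1 and -2.02 in STK19_KO2.

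PTPN13, a large tyrosine phosphatase gene, was 167, 140 and 152 CPM in untreated WT and 148, 149 and 154 CPM at 20 h. It fell in STK19_KO1 from 139, 134 and 132 CPM to 37.7, 37.2 and 37.0 CPM, and in STK19_KO2 from 135, 132 and 131 CPM to 34.5, 37.1 and 34.6 CPM. The late values of both clones nearly coincided. BIRC6, an inhibitor of apoptosis, fell in WT from 116 ± 8.06 to 88.4 ± 3.89 CPM, and in the knockouts from 116 ± 2.74 to 23.7 ± 0.812 CPM (STK19_KO1) and from 117 ± 0.728 to 23.4 ± 0.595 CPM (STK19_KO2; SD, n = 3).

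MUC16, a membrane mucin gene, moved in opposite directions. It rose in WT from 11.2, 11.4 and 11.9 CPM to 25.9, 25.1 and 27.9 CPM. It fell in STK19_KO1 from 13.9, 15.5 and 14.1 CPM to 9.33, 7.27 and 8.24 CPM, and in STK19_KO2 from 15.6, 15.5 and 17.2 CPM to 9.44, 9.29 and 8.85 CPM. The knockouts were above WT at 0 h and below it at 20 h.

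Of the 15470 tested genes, 441 called genes rose in WT and fell in each knockout, and 200 fell in WT and rose in each knockout. These sets are defined by the direction of change, and the levels need not cross. SLC7A11 went from 35.2 to 58.5 CPM in WT, and was below WT at both times in STK19_KO1 (14.1 and 6.82) and STK19_KO2 (19.7 and 10.6). The first set included SLC7A11, the cystine transporter gene (log2 change 0.73 in WT, -1.04 in STK19_KO1 and -0.90 in STK19_KO2), HUWE1, a ubiquitin ligase gene (0.27, -1.43 and -1.34), KDM6A, a histone demethylase gene (0.37, -1.21 and -1.31), and TRRAP, a scaffold of histone acetyltransferase complexes (0.26, -1.39 and -1.22). The second set included TUBA1C, an alpha-tubulin gene (-0.52, 0.73 and 0.65), BAG2, a co-chaperone gene (-0.38, 0.69 and 0.84), and FASTKD5, a gene of mitochondrial RNA processing (-0.18, 0.98 and 1.07). HUWE1, TRRAP, TUBA1C, BAG2 and FASTKD5 were chosen after their values were seen.

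**Figure D2:**
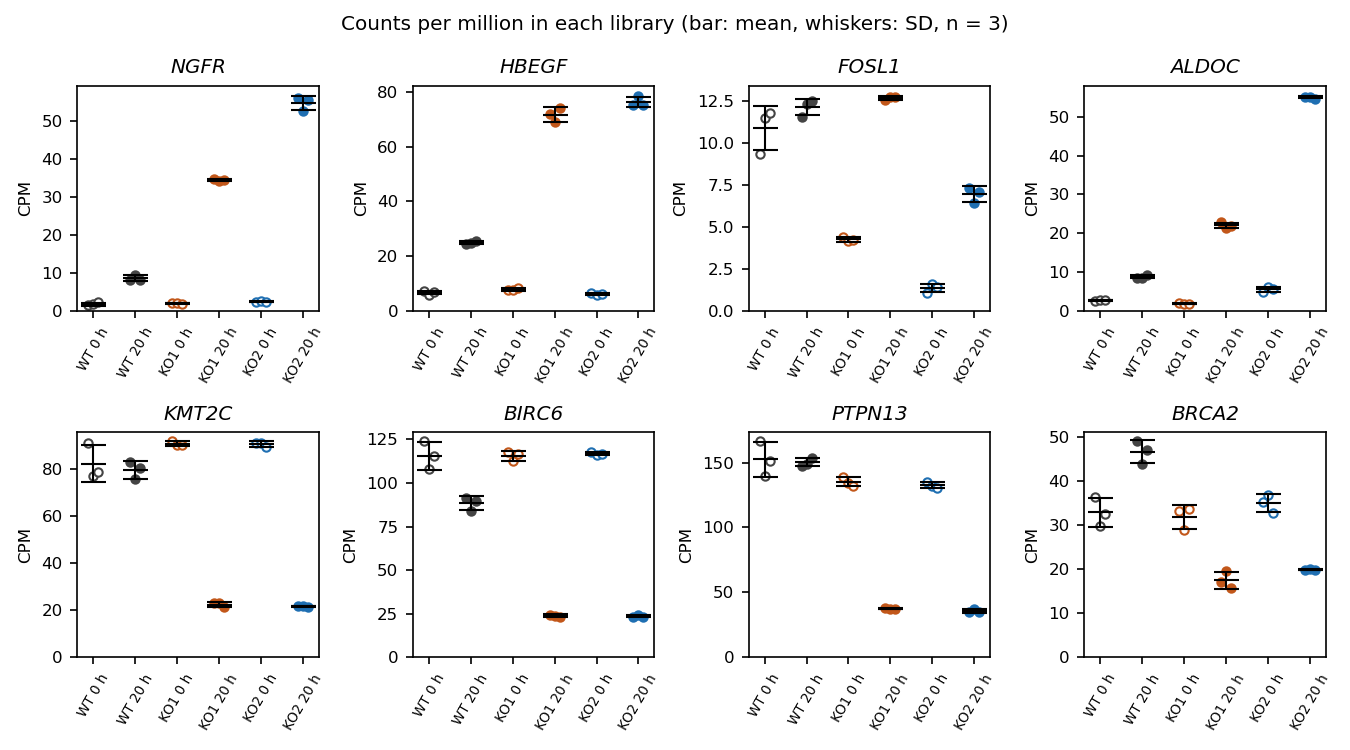
CPM in each of 3 libraries per group (points; open at 0 h, filled at 20 h in DMSO), with the mean and SD, for 4 genes with a positive and 4 with a negative interaction. At 20 h NGFR, HBEGF and ALDOC are higher in both knockouts than in WT, FOSL1 is not higher in STK19_KO2, and KMT2C, BIRC6, PTPN13 and BRCA2 are lower in both.

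The sign of the interaction followed the span of the gene on the genome, a property the calling rule did not use. Among 3124 tested genes under 10 kb, 32.1% were called higher and 16.8% lower, with a median interaction of 0.12. The 4256 genes of 10 to 30 kb were similar, with 33% higher, 19.4% lower and a median of 0.09. At 30 to 100 kb (4975 genes) the balance turned to 16.2% higher and 38.9% lower, with a median of -0.15. It was most one-sided at 100 to 300 kb (2475 genes), where 8.65% were higher, 60.2% lower and the median was -0.49.

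The 640 genes of 300 kb and over did not continue the order, with 13.1% higher, 42% lower and a median of -0.27. In that bin WT had itself fallen by a median of 1.62 at 20 h, against 1.79 in STK19_KO1 and 2.01 in STK19_KO2. At 100 to 300 kb the median change was -0.29 in WT, -0.78 in STK19_KO1 and -0.87 in STK19_KO2. Under 10 kb all lines had a positive median, 0.21 in WT, 0.31 in STK19_KO1 and 0.37 in STK19_KO2.

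At 4 h the medians of the long genes lay close together in the 3 lines. The median change of the 100 to 300 kb genes was then -0.55 in WT, -0.54 in STK19_KO1 and -0.55 in STK19_KO2, and in the longest genes -0.55, -0.63 and -0.62. Between 4 h and 20 h these medians moved up in WT and down in both knockouts at 100 to 300 kb, and down in all 3 lines in the longest genes. Exonic length moved with span: genes with 10 kb or more of exon had a median interaction of -0.40, and those under 2 kb of 0.07. Within genes of 6 to 10 kb of exon, the median still ran from 0.06 (10 to 30 kb span) to -0.47 (100 to 300 kb span). Within genes of 100 to 300 kb span, it likewise ran from -0.121 (under 2 kb of exon) to -0.645 (10 kb and over). The separate parts of span and exonic length were not tested. Genes are not independent replicates, and these medians carry no test.

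**Figure D3:**
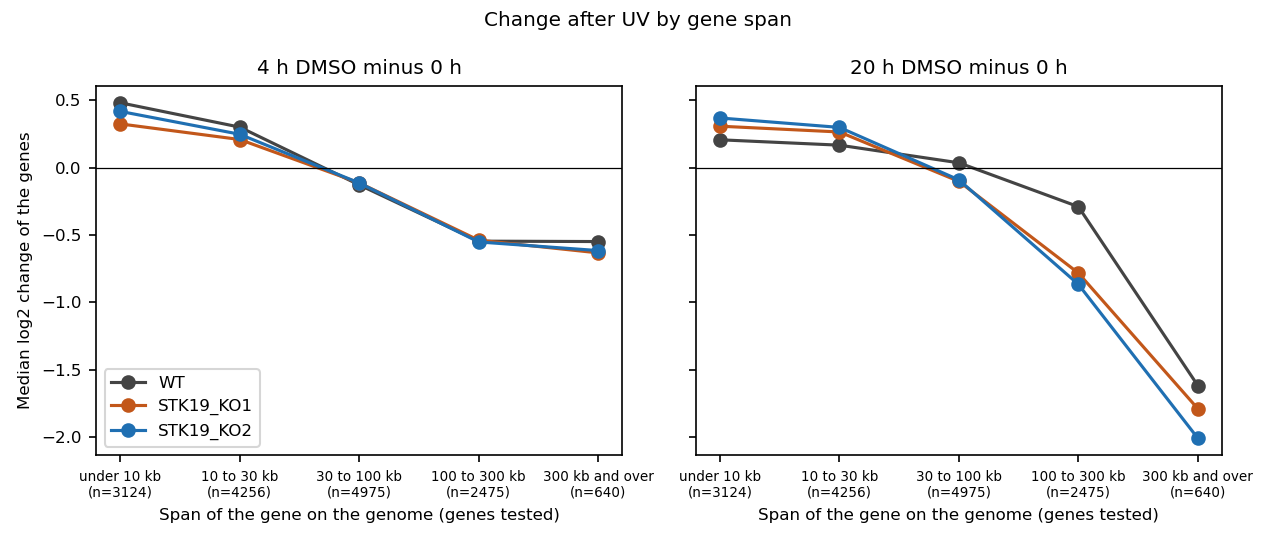
Median log2 change of all tested genes in each span bin, at 4 h (left) and 20 h in DMSO (right) against 0 h, in WT, STK19_KO1 and STK19_KO2. At 4 h the lines lie close together from 30 kb upward; at 20 h both knockouts lie below WT from 30 kb upward, furthest at 100 to 300 kb.

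Immediate early genes, which stress and growth factors switch on without new protein synthesis, had the highest median interaction among the nuclear lists of 10 or more genes. Of 30 tested, 22 were called higher and 0 lower, with a median of 0.61, beside 22.7% and 32.6% of all genes and a median of -0.09. By clone the median was 0.37 in STK19_KO1 and 0.86 in STK19_KO2. The list's genes are short, 28 of 30 under 30 kb, and 2406 of all 7380 tested genes under 30 kb were called higher.

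HBEGF, a ligand of the epidermal growth factor receptor, followed FOSL1 in the size of its interaction. It was 7.08, 5.84 and 6.97 CPM in untreated WT, 7.53, 7.51 and 8.25 in STK19_KO1, and 6.47, 5.68 and 6.18 in STK19_KO2. At 20 h it was 24.5, 24.7 and 25.3 CPM in WT, 71.9, 68.9 and 74.2 in STK19_KO1, and 75.2, 78.5 and 75.1 in STK19_KO2. All lines had started low, and the knockouts ended close together, well above WT. The interaction was 1.52 ± 0.06 (SE; adjusted p = 4.93e-28, edgeR quasi-likelihood). At 4 h HBEGF had been 58.3 ± 2.03 CPM in WT, 56.8 ± 0.342 in STK19_KO1 and 50.9 ± 1.77 in STK19_KO2 (SD, n = 3), so the late difference arose as WT came down while the knockouts went up.

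ATF3, a stress-induced transcription factor gene on the same list, was called for the mean (0.45 ± 0.05, SE) but only through 1 clone: its interaction was 0.00 in STK19_KO1 and 0.90 in STK19_KO2. Beside 22.7% higher and 32.6% lower of all tested genes, 7 of 21 MAPK feedback and growth factor ligand genes were higher and 4 lower. Their median was 0.27. The lower ones were EGFR (-0.96), DUSP16 (-0.69), SPRED1 (-0.42) and SPRED2 (-0.24, chosen after its value was seen), each 30 kb or longer, while all 7 higher ones were shorter than 30 kb.

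The course over time was followed in the untreated libraries, the 3 h libraries after UV without solvent, and the 4 h and 20 h libraries in DMSO. SERTAD1, a gene of a cyclin-dependent kinase regulator, was at 107 ± 10.4 CPM in WT at 4 h and 36.7 ± 2.02 at 20 h, whereas STK19_KO1 went from 130 ± 3.17 to 156 ± 4.45 and STK19_KO2 from 141 ± 3.48 to 180 ± 6.89 (SD, n = 3). SNAI1 went from 25.4 ± 3.70 to 4.46 ± 0.109 CPM in WT, from 19.0 ± 0.855 to 16.3 ± 0.359 in STK19_KO1 and from 18.6 ± 2.27 to 17.8 ± 1.5 in STK19_KO2. WT came down steeply in both genes, while SERTAD1 went up in both clones and SNAI1 moved little.

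KDM6A showed the reverse. It fell by 4 h to 14.8 ± 0.540 CPM in WT, 24.4 ± 0.864 in STK19_KO1 and 24.4 ± 0.594 in STK19_KO2. At 20 h it had returned in WT to 53.7, 53.2 and 53.1 CPM, above its untreated 42.4, 39.5 and 41.5 CPM. In STK19_KO1 it stood at 31.4, 32.3 and 28.7 CPM, under its untreated 73.3, 69.6 and 71.6 CPM, and in STK19_KO2 at 27.1, 28.9 and 26.8 CPM, under 68.8, 69.3 and 67.5 CPM.

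Tested from 4 h in place of 0 h, which leaves out the untreated libraries and keeps the solvent constant, the interaction was called for 9633 genes (62.3%), 4161 higher (26.9%) and 5472 lower (35.4%). Without replicate 1 of WT at 4 h it was 4101 higher and 5305 lower, and with library totals 23.1% in place of 43.2% of the calls were higher. It shares the 20 h libraries with the comparison from 0 h. From 4 h the 12 genes with positive values ranged from 0.24 (SPRY4) to 2.37 (SNAI1), and the 12 with negative values from -2.28 (EFNA5) to -1.11 (MUC16). Between 0 h and 3 h, the same genes had interactions of -0.51 to 1.86 and of -0.72 to -0.03. The 3 h libraries were in neither the replicate check nor the alternatives that drop a library. MUC16, at -0.72, had 14.7, 34.5 and 30.4 CPM in the WT libraries at 3 h.

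**Figure D4:**
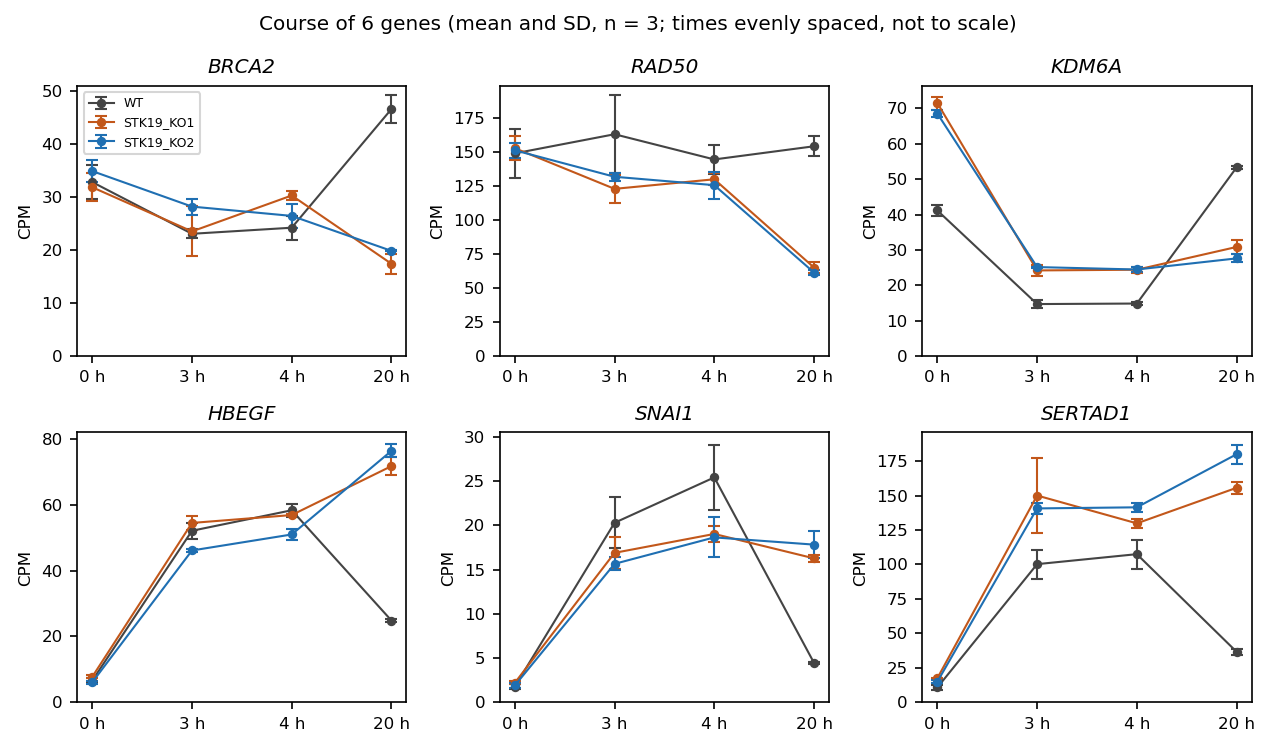
Mean CPM and SD (n = 3) at 0 h, 3 h, and 4 h and 20 h in DMSO, for 3 genes with a negative (top) and 3 with a positive interaction (bottom); times are evenly spaced, not to scale. Between 4 h and 20 h WT turns upward in BRCA2 and KDM6A and downward in HBEGF, SNAI1 and SERTAD1.

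Promoters were read for the genes called at least 2-fold higher, because the immediate early list holds the AP-1 subunits. RefSeq promoter sequence (GRCh38.p14, 250 bases before to 50 after the start) matched 12137 tested genes. The AP-1 motif TGANTCA, which reads the same on both strands, occurred in 28 of 281 promoters of genes called at least 2-fold higher (9.96%), in 19 of 604 of those called at least 2-fold lower (3.15%) and in 4.57% of all. Over all called higher genes the share was 4.75%, close to that of all genes. TATAAA on either strand occurred in 11.7%, 7.78% and 6.57%, and the cyclic AMP element TGACGTCA in 2.85%, 2.98% and 3.12%. No 2 of these motifs can share bases. A match is a description and not a binding site, and these shares carry no test.

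Of the 28 genes, 6 had a mean level of at least 3 log2 CPM, and 5 of those held the motif before the start. They are shown because they pair the motif with a well-measured response; capitals mark the motif and each window is read 5′ to 3′ on the gene's own strand.
TUBB3 (chr16:89921879-89921924, plus strand): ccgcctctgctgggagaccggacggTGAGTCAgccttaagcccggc
HSPA5 (chr9:125241496-125241552, minus strand): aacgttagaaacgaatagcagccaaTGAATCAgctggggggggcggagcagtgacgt
BAIAP3 (chr16:1333429-1333485, plus strand): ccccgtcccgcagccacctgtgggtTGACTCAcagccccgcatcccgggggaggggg
TAF13 (chr1:109076214-109076253, minus strand): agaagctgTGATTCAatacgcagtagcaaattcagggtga
ZNF222 (chr19:44025344-44025378, plus strand): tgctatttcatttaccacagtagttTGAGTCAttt

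A TATAAA close before the start is shown for 3 strongly responding genes, with the motif in capitals on the gene's own strand. HAP1 and TNFSF9 are among the 12 genes above, and HEXIM1 encodes a regulator of elongation described further down.
HAP1 (chr17:41734644-41734698, minus strand): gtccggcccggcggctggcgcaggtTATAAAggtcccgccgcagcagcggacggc
TNFSF9 (chr19:6530971-6531025, plus strand): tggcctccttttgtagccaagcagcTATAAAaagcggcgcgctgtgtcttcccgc
HEXIM1 (chr17:45148421-45148474, plus strand): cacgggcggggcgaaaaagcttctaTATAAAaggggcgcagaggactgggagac

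TUBB3, a neuronal beta-tubulin gene, had an interaction of 1.12 ± 0.11 (SE) and went from a mean of 11.4 CPM to 36.2 CPM in WT. The means of STK19_KO1 were 14.6 and 92.3 CPM, and those of STK19_KO2 11.1 and 83.9 CPM. TAF13, which encodes a subunit of the general factor TFIID, had 1.29 ± 0.14, BAIAP3, a gene of vesicle traffic, 1.18 ± 0.17, and ZNF222, a zinc finger gene, 1.06 ± 0.10. TAF13, BAIAP3 and ZNF222 were chosen for their promoters after their values were seen.

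Heat shock and unfolded protein response genes also leaned higher, beside 22.7% higher and 32.6% lower of all tested genes. Of 14 heat shock genes 10 were called higher and 0 lower, with a median of 0.47, and of 16 unfolded protein response genes 10 were higher and 1 (EDEM1, -0.37) lower, with a median of 0.26. Under 30 kb 10 of 11 unfolded protein response genes were higher, and at 30 kb and over 0 of 5. For heat shock it was 7 of 10 and 3 of 4. Over all tested genes it was 2406 of 7380 and 1102 of 8090. What span contributed to these lists was not tested. DNAJB1, a co-chaperone gene, was at 82.8, 82.5 and 87.7 CPM in WT at 20 h, level with its untreated 81.4, 80.9 and 88.9 CPM. It rose in STK19_KO1 from 137, 135 and 134 to 274, 266 and 271 CPM, and in STK19_KO2 from 128, 118 and 133 to 303, 302 and 295 CPM.

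HSPA5, the main chaperone of the endoplasmic reticulum, came to its positive interaction by a fall in WT. WT went from 560, 531 and 542 CPM to 301, 296 and 295 CPM. STK19_KO1 stayed at 504, 479 and 488 against 486, 494 and 510 CPM, and STK19_KO2 rose from 440, 431 and 452 to 507, 520 and 533 CPM. Its interaction was 1.00 ± 0.05 (SE; adjusted p = 1.36e-24, edgeR quasi-likelihood), and those of DNAJB9 and MANF, of the same response, were 1.08 and 0.88.

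Genes of homologous recombination and the Fanconi pathway, which repair breaks and crosslinks, leaned lower: 19 of 27 were called lower and 2 higher (RAD54L, 0.30, and FANCE, 0.20, called in 27 of 36 alternatives), with a median of -0.63. They are long genes, with a median span of 73.3 kb against 32.7 kb for all. Of the 21 members of 30 kb and over 18 were lower and 1 higher, and of the 6 shorter ones 1 was lower and 1 higher; over all tested genes of 30 kb and over, 3693 of 8090 were lower. What span contributed to the list was not tested.

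BRCA2, a mediator of homologous recombination, rose in WT from 36.2, 29.7 and 32.5 to 49.1, 43.8 and 46.9 CPM. It fell in STK19_KO1 from 33.0, 28.8 and 33.7 to 17.0, 19.5 and 15.7 CPM, and in STK19_KO2 from 35.1, 36.8 and 32.7 to 19.7, 19.9 and 19.8 CPM. The lines overlapped at 0 h and did not at 20 h. BRCA2 had an interaction of -1.35 ± 0.11, RAD50, of the break-sensing complex, -1.32 ± 0.09, and BRCA1 -1.26 ± 0.07 (SE).

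Of 28 nucleotide excision repair genes, 16 were lower and 2 higher, with a median of -0.21; over the alternatives 11 to 21 were lower and 2 to 6 higher. The higher ones were ELOF1 and GTF2H4, a TFIIH subunit gene (0.29). Both were among the 9 members under 30 kb, of which 4 were lower. Of the 19 members of 30 kb and over, 0 were higher and 12 lower. What span contributed was not tested. Among all tested genes 22.7% were higher and 32.6% lower. ELOF1, the elongation factor that binds the stalled polymerase, was 39.9, 47.3 and 46.1 CPM in untreated WT and 49.0, 51.4 and 53.8 CPM at 20 h. It rose in STK19_KO1 from 72.9, 76.1 and 73.2 to 151, 141 and 149 CPM and in STK19_KO2 from 59.98, 64.1 and 69.2 to 137, 139 and 138 CPM. The knockouts were above WT at both times and further so at 20 h (interaction 0.83 ± 0.09, SE).

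UVSSA, which works with CSB at the polymerase, had an interaction of -0.60 ± 0.10 (SE), with mean levels of 18.4 and 22.1 CPM in WT. The means were 16.2 and 12.3 CPM in STK19_KO1, and 15.4 and 12.7 CPM in STK19_KO2. ERCC6 was called lower at -0.23 ± 0.09 (SE; adjusted p = 0.0226, edgeR quasi-likelihood), and the call held in 29 of the 36 alternatives. DDB2, of the lesion-recognition complex, was -0.47 in STK19_KO1 and -0.94 in STK19_KO2.

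ATR checkpoint genes did not lean one way. Of 18, 6 were higher (3 to 8 over the alternatives) and 8 lower, beside 22.7% and 32.6% of all tested genes. Their median of -0.03 changed sign in 4 of the 36 alternatives. ATM (-1.36), the kinase of break signalling, and ATR (-1.11), the kinase of replication stress, led the lower members. ATR was 44.2, 40.6 and 41.7 CPM in WT at 20 h, 18.9, 19.5 and 16.8 in STK19_KO1, and 19.2, 19.1 and 19.7 in STK19_KO2, from untreated means of 51.9, 47.4 and 52.9 CPM. CHEK1, the kinase ATR activates, was not called (0.07 ± 0.09, SE).

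Among histone lysine methyltransferases and demethylases 18 of 27 were lower and 1 higher (SUV39H1, 0.39; 1 to 7 higher over the alternatives), with a median of -0.41 and a median span of 84.3 kb. All 18 were among the 22 members of 30 kb and over. KDM6A (-1.64 ± 0.07) and NSD1 (-1.27 ± 0.08, SE) followed KMT2C. Of 35 genes of polymerase II elongation and termination 17 were higher and 8 lower (median 0.16), beside 22.7% and 32.6% of all tested genes. Under 30 kb 10 of 14 were higher and 0 lower, and at 30 kb and over 7 of 21 were higher and 8 lower. What span contributed to these 2 lists was not tested.

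POLR2A, the largest polymerase II subunit, reached 491, 530 and 537 CPM at 20 h in WT, 1244, 1207 and 1093 in STK19_KO1 and 1411, 1454 and 1413 in STK19_KO2, from untreated means of 286, 407 and 400.5 CPM. HEXIM1, which holds the elongation kinase P-TEFb inactive, reached 191, 192 and 193 CPM in WT, 385, 368 and 374 in STK19_KO1 and 608, 575 and 585 in STK19_KO2, from untreated means of 79.1, 82.7 and 88.9 CPM. Both were ordered WT, STK19_KO1, STK19_KO2 with no overlap. Their interactions were 0.82 ± 0.12 and 1.18 ± 0.05 (SE), while CDK13, a polymerase kinase gene of 149.5 kb, had -0.93 ± 0.08.

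**Figure D5:**
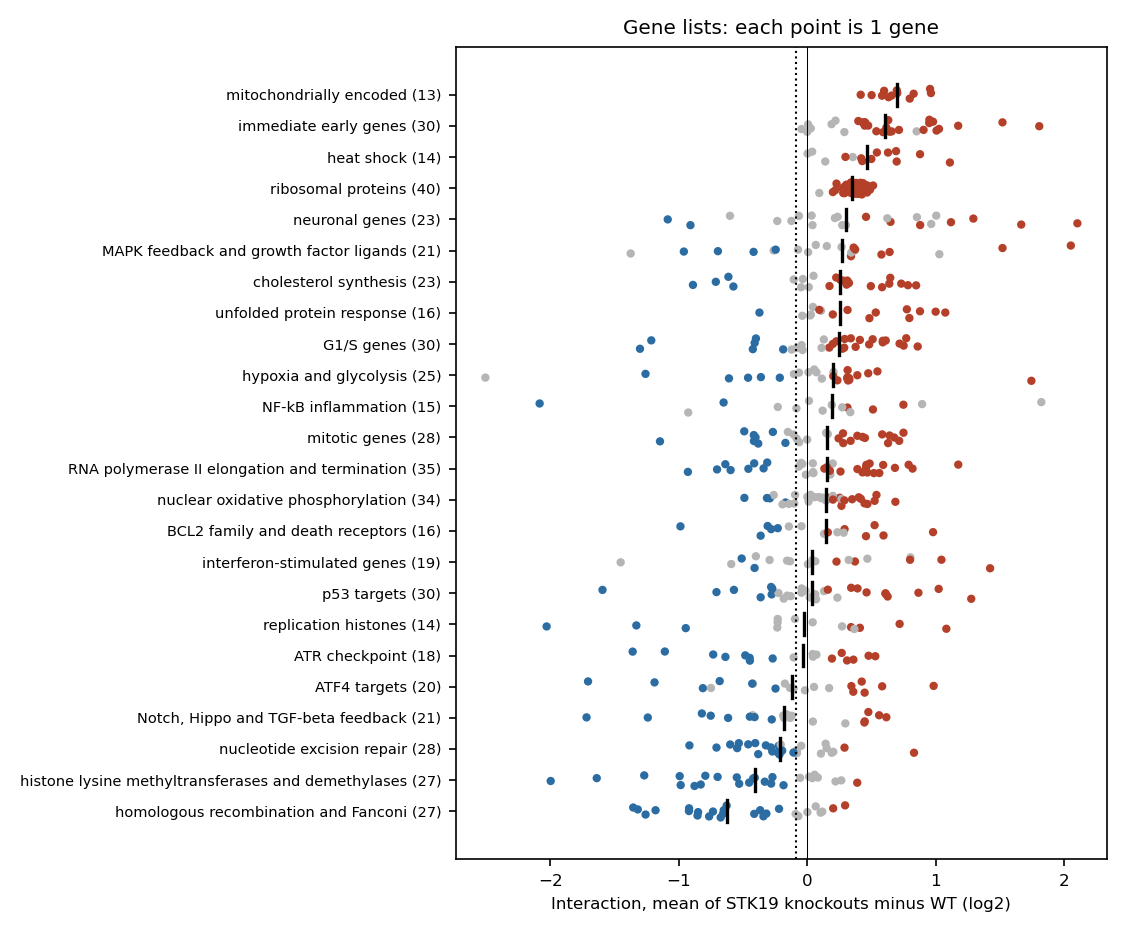
Interaction (log2) of each tested member of the gene lists with 10 or more members; red, called higher; blue, called lower; grey, not called; black bar, list median; dotted line, median of all genes. Mitochondrially encoded and immediate early genes lie to the right, and homologous recombination and histone methylation genes to the left.

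Cell cycle genes were mixed, beside 22.7% higher and 32.6% lower of all tested genes. Of 30 G1/S genes 18 were higher and 6 lower (median 0.25). Those under 30 kb had 14 higher and 1 lower, and those of 30 kb and over 4 and 5. PCNA, the replication clamp, went from 346, 334 and 341 to 340, 310 and 340 CPM in WT, from 399, 391 and 414 to 656, 635 and 698 in STK19_KO1, and from 320, 307 and 323 to 607, 594 and 587 in STK19_KO2. The knockouts rose and WT stayed level. The primase and polymerase genes PRIM1 (-1.21) and POLA1 (-1.30) went the other way. Of 28 mitotic genes 13 were higher, led by the kinesin gene KIF20A (0.75), and 8 lower, led by CENPE, a kinetochore motor gene (-1.14). Their median was 0.16. Mitotic genes under 30 kb had 11 higher and 1 lower, and those of 30 kb and over 2 and 7. Over all tested genes it was 2406 and 1349 of 7380 under 30 kb, and 1102 and 3693 of 8090 otherwise. What span contributed to these lists was not tested. Replication histones were 4 higher and 3 lower of 14, and their median changed sign in 14 alternatives.

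Of 30 p53 targets 10 were higher and 7 lower, beside 22.7% and 32.6% of all tested genes. The median, 0.04, changed sign in 2 alternatives. CDKN1A, the p21 inhibitor of cyclin-dependent kinases, reached 49.8, 49.96 and 50.7 CPM in WT, 96.3, 93.8 and 97.8 in STK19_KO1 and 92.0, 92.3 and 94.8 in STK19_KO2, from 34.3, 31.1 and 22.9 CPM on average (interaction 1.28 ± 0.08, SE). SPATA18, of mitochondrial quality control, rose in WT from 4.91 to 12.3 CPM and was at 7.0 and 6.0 CPM in STK19_KO1 and 4.40 and 3.52 CPM in STK19_KO2 (-1.59 ± 0.13, SE). Of 16 BCL2 family and death receptor genes, 6 were higher and 5 lower (median 0.15), and over the alternatives 4 to 9 and 2 to 5. The survival factor MCL1 (0.98 ± 0.05) led the first, and BCL2L2 (-0.99 ± 0.08, SE), of the same function, the second.

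Ribosomal protein genes moved little but nearly as one: 39 of 40 were higher and 0 lower, within 0.10 to 0.51, with a median of 0.35. Their median change was 0.00 in WT, 0.39 in STK19_KO1 and 0.36 in STK19_KO2. Across the alternatives, 31 to 40 of them were called higher. Of all tested genes 22.7% were higher and 32.6% lower. Under 30 kb, 38 of 39 ribosomal protein genes were higher, beside 2406 of all 7380 tested genes. What span contributed was not tested. All 13 mitochondrially encoded genes were higher, with a median of 0.70 and median changes of -0.84 in WT, -0.24 in STK19_KO1 and 0.00 in STK19_KO2. Their share of all counts went from 3.30 ± 0.182% to 2.35 ± 0.368% in WT, from 2.89 ± 0.0848% to 2.81 ± 0.257% in STK19_KO1 and from 2.88 ± 0.111% to 3.17 ± 0.188% in STK19_KO2 (SD, n = 3). This share is also read as a sign of RNA or cell state, and its part in other results was not tested.

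For cholesterol synthesis 14 of 23 were higher and 4 lower (median 0.26), for hypoxia and glycolysis 12 and 5 of 25 (0.20), for nuclear oxidative phosphorylation 14 and 4 of 34 (0.15), and for neuronal genes 7 and 2 of 23 (0.30). All tested genes had 22.7% higher and 32.6% lower. Over the alternatives the higher count ran from 9 to 15 for cholesterol synthesis and from 9 to 22 for oxidative phosphorylation. The lower count of oxidative phosphorylation ran from 2 to 8. ATF4 targets had 6 and 6 of 20 (-0.12; 6 to 10 lower over the alternatives), with SLC7A11 at -1.70 and the amino acid transporter SLC7A5 at 0.99. Notch, Hippo and TGF-beta feedback genes had 5 higher and 8 lower of 21 (-0.18), close to the shares of all tested genes. SMAD6 (-1.72) and ID3 (-1.24), of the BMP response, led the lower ones. NF-kB inflammation had 3 and 2 of 15 (0.19; 3 to 7 higher over the alternatives), and interferon-stimulated genes 5 and 2 of 19, with a median (0.04) that changed sign in 4 alternatives.

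Markers of HEK293 summed to 1190 to 1740 CPM of library totals in every group, with all 7 present. VIM was at 841 to 1080 CPM, and 2 of the 7 (PAX2 and NEFM) were called lower, NEFM in 19 of 35 alternatives. The 2 of 7 are near the share of all tested genes, of which 32.6% were lower and 22.7% higher. In bulk RNA, fewer cells of a type and less RNA per cell cannot be told apart. Blood markers summed to 5.74 to 8.96 CPM at 0 h. At 20 h the sum lay between 14.5 and 17.7 CPM in WT, between 39.6 and 44.6 CPM in STK19_KO1, and between 32.6 and 33.4 CPM in STK19_KO2. Nearly all of it was HBA1 and CD14, both called higher, and their part in the other results was not tested, while CD3D had no count and PTPRC was at or under 0.0344 CPM in all groups. Fibroblast markers summed to at most 22.7 CPM with 1 of 5 tested called higher and 1 lower. Kidney tubule markers summed to 17.1 to 28.7 CPM at 0 h and 7.46 to 10.6 CPM at 20 h, nearly all LRP2 (called lower), with AQP2 and CDH16 at 0. Squamous markers stayed at or under 0.237 CPM.

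The clones were also compared with each other, with no WT library in the test. The change at 20 h differed for 1063 genes (6.87%), 414 (2.68%) more positive in STK19_KO1 and 649 (4.2%) more positive in STK19_KO2. With library totals the balance turned, to 721 more positive in STK19_KO1 and 347 in STK19_KO2. Without STK19_KO2 at 0 h replicate 2 the second count was 407, without STK19_KO2 at 0 h replicate 1 it was 430, and without STK19_KO1 at 20 h replicate 1 the first count was 280. Which clone more often had the more positive change therefore depends on the scaling. Among the called higher genes 423 of 3508 (12.1%) differed, 374 with a larger interaction in STK19_KO2 and 49 in STK19_KO1. Among the called lower genes 364 of 5042 (7.22%) differed, 274 with the more negative interaction in STK19_KO2 and 90 in STK19_KO1. The median interaction of the higher genes was 0.42 in STK19_KO1 and 0.50 in STK19_KO2, and of the lower genes -0.55 and -0.62.

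Called separately, the interaction passed for 7473 genes (48.3%) in STK19_KO1 and 8265 (53.4%) in STK19_KO2; both comparisons share the WT libraries. Calls of 1 sign in the mean and in each clone numbered 2513 higher (16.2%) and 3969 lower (25.7%). Among genes that differed between the clones, SPRY4 differed by -1.91 ± 0.15, EGR1, an immediate early transcription factor gene, by -1.31 ± 0.09, and ETV4, a transcription factor gene downstream of the same signalling, by -1.20 ± 0.15 (STK19_KO1 minus STK19_KO2, SE). For ETV4 the interaction was -0.56 in STK19_KO1 and 0.64 in STK19_KO2. ENTREP2 differed the other way, by 1.69 ± 0.19 (SE), with interactions of 1.63 in STK19_KO1 and -0.06 in STK19_KO2. ETV4, EGR1 and ENTREP2 were chosen after their values were seen.

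The CSB knockout (CSB_KO, 1 clone) was measured beside the same WT libraries, so its values are set alongside without a comparison. The interactions of CSB_KO with WT ranged from 1.54 to 3.41 over the 12 genes with positive values and from -3.11 to -0.68 over the 12 with negative values. At 100 to 300 kb its median was -0.80 and at 300 kb and over 0.21.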

How the data were processed

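Per the labels' protocols, libraries of polyadenylated RNA came from RNeasy extracts (Qiagen) and a NEBNext Ultra II Directional kit. Per the submitters' processing notes, STAR and RSEM with GRCh38 were used, along with deepTools 3.5.1; other versions and the annotation release are not given in the sources used here. The deposited table holds the authors' expected counts per gene and library, which are whole numbers as deposited, so no rounding was needed. Coverage tracks were not used.

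All 72 libraries entered 1 fit (24 groups, no covariate) of edgeR 4.0.16 in R 4.3.3: filterByExpr (minimum count 10, minimum total 15), TMM scaling, trended dispersion and the quasi-likelihood test. Benjamini-Hochberg adjustment covered the 15470 genes kept. The test recovered 49 of 50 genes simulated at 1.5-fold for this interaction and 50 of 50 at 2-fold. It made 12 false calls among 15205 unchanged genes of 15405. The changed genes had a mean of at least 3 log2 CPM and no extreme change in WT, and were far fewer than those called here. Counts were drawn independently from the dispersion trend, with no deviant replicate and no pairing. These rates therefore need not hold for weakly expressed genes or for the spread of these libraries. Spans came from the GRCh38 coordinates deposited with the counts. Exonic lengths came from GENCODE annotation of GRCh38, with 19151 of 19324 IDs matched. Symbols matched RefSeq promoters for 7 of the 12 positive and 11 of the 12 negative genes.

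Named genes were the 12 largest interactions each way with a mean of at least 3 log2 CPM, a group mean of at least 1 CPM in each line and calls of 1 sign in each clone, plus STK19, ERCC6, ATR, CHEK1 and up to 3 called members each way per list. Members and the 29 lists were chosen with earlier results of these data known. Splitting lists by span was added after seeing the data. Alternatives were other scalings and filters, DESeq2 1.42.0, fewer libraries in the fit, replicate blocks, and leaving out each replicate.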

Additional observations from a re-analysis of the deposited data

Results flagged for a closer look

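For 30 named genes the change at 20 h differed between STK19_KO1 and STK19_KO2 in the direct test (edgeR quasi-likelihood, adjusted p under 0.05). The differences below are log2 values of STK19_KO1 minus STK19_KO2. Stress and signalling genes were larger in STK19_KO2: SPRY4 (-1.91), CCN2 (-0.90), ATF3 (-0.90), FOSL1 (-0.77), GADD45A (-0.70), TNFAIP3 (-0.63), IER3 (-0.53), HBEGF (-0.44), PLEKHO2 (-0.43), SERTAD1 (-0.43), RND1 (-0.42), CDKN1A (-0.40), PLK2 (-0.38) and MCL1 (-0.35). So were HEXIM1 (-0.55), the chaperone genes DNAJB1 (-0.25) and HSPA5 (-0.22), and the replication and repair genes CDC6 (-0.43), RAD54L (-0.34), CDC25A (-0.30) and SLBP (-0.23).

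The opposite sign was found for SMAD6 (0.75), FAS (0.69), DDB2 (0.47), PMVK (0.43), CENPE (0.41), HSD17B7 (0.37), NDRG1 (0.34), ROBO1 (0.32) and KIF20A (0.30). Of these, KIF20A had the larger rise in STK19_KO1, and the interaction of the other 8 was more negative in STK19_KO2. FAS, a death receptor gene, had an interaction of -0.01 in STK19_KO1 and -0.71 in STK19_KO2.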

How the results depend on the processing

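Over the 148 named genes, 5214 of the values under alternatives kept their direction and side of the threshold, 94 lost the call, 14 gained one and 1 reversed: CHEK1, not called, was at -0.036 with library totals. With library totals the late interaction had 2613 higher and 6064 lower genes; the interaction from 4 h had 2332 higher, and its share of higher calls was 23.1% in place of 43.2%. Between clones, 721 genes had the more positive change in STK19_KO1 and 347 in STK19_KO2 with library totals. It was 424 in STK19_KO2 with no filter, and 1447 and 1704 with only the libraries of the contrast. The 2-fold limit left 376 higher and 784 lower genes of the late interaction. With only the libraries of the contrast the late interaction had 4623 higher and 4474 lower genes, and with upper-quartile scaling 4165 and 4354. Leaving out 1 library at a time gave 3228 to 3662 higher and 4608 to 5040 lower genes for the mean, 2706 to 3183 and 4069 to 4571 for STK19_KO1, 3206 to 3579 and 4495 to 4848 for STK19_KO2, and 3926 to 4296 and 5135 to 5510 from 4 h. Between clones it gave 280 to 446 and 407 to 687; the lowest followed from leaving out STK19_KO1 at 20 h replicate 1 and STK19_KO2 at 0 h replicate 2, and without STK19_KO2 at 0 h replicate 1 the second count was 430. The cause of these shifts was not tested. The median interaction of genes of 100 to 300 kb minus that under 10 kb was -0.61, ranged from -0.697 to -0.485 under the alternatives, and was -0.477 with bins of exonic length. Nothing in the labels ties same-numbered libraries to a shared culture or day. Deviations of same-numbered libraries correlated at -0.163 to 0.579, and 8 of 9 untreated libraries correlated best with their own number at 20 h, a hint of pairing from the data and not from the design. With a replicate block 3608 genes were higher and 5205 lower, and with a block within line 3639 and 5256. H2AC20, NEFM and IFIT3 lost their call most often, keeping it in 11, 19 and 20 of 35 alternatives.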

Other observations

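Some gene families picked by symbol after the data were seen add detail. Of 39 genes with proteasome symbols (PSM) 24 were called higher and 2 lower, with a median interaction of 0.32. They took in PSMC3IP, which is not a proteasome subunit gene. Of 54 genes with translation factor symbols (EIF) 30 were higher and 11 lower (0.26). These took in the kinase genes EIF2AK4 and EIF2AK2, both among the lower ones. Of 78 mitochondrial ribosome genes 35 were higher and 8 lower (0.17). Deubiquitinases (USP) leaned the other way, with 6 of 51 higher and 30 lower (-0.36). Median spans were 15.7, 24.1 and 11.9 kb for the first 3 families and 64.9 kb for the deubiquitinases. Of all tested genes under 30 kb, 2406 of 7380 were higher and 1349 lower, and of those of 30 kb and over 1102 of 8090 were higher and 3693 lower, and what span contributed to these families was not tested. The 483 zinc finger genes named ZNF were split between 135 higher and 130 lower, with a median of 0.01.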
